A study of Homo sapiens with 4 samples.

Results

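Molecular chaperones bind unfolded proteins and help them reach or keep their folded state. The genes described here encode the heat-shock proteins of the HSP70, HSP110, HSP90 and small families, the mitochondrial and cytosolic chaperonins, the DNAJ cochaperones, the BAG cochaperones and the heat-shock transcription factors. HSP70 proteins bind and release clients in a cycle of ATP hydrolysis that DNAJ proteins start and that nucleotide exchange factors, among them HSP110 and BAG proteins, complete. Chaperonins fold proteins inside a closed chamber, and HSP90 matures signalling proteins such as kinases and steroid receptors. Under stress the transcription factor HSF1 binds heat-shock elements in promoters of many of these genes, and carcinoma cells commonly carry high levels of several chaperones.

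The members were chosen by gene symbol. Of 22465 genes tested, 96 had a symbol that began with HSPA, HSPD1, HSPE1, HSPH1, HSP90 or DNAJ, or with HSPB, CCT, BAG or HSF followed by a digit. Of these, 10 pseudogenes were left out, which gave 86 members, of which 82 were protein-coding genes and 4 were long noncoding RNAs named for a neighbouring DNAJ gene. HSF2BP matched by its symbol only, since it encodes a binding partner of HSF2 that is known from meiotic recombination, so 81 members had a chaperone or heat-shock role. All 86 were tested, since no filter on low values was applied. A further 21 array features that carry a matching symbol together with other symbols were not used here. HSPA8, HSPA1B, HSP90B1, HSF4, HSPB2, DNAJB3, DNAJC5, DNAJC9 and DNAJC25 therefore have no values below and are missing from the counts by family.

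The cells were A549, a long-established human lung carcinoma line of epithelial origin that lacks the kinase LKB1. The shINSL4 cells carried a pLKO.1 lentivirus with 1 short hairpin RNA against INSL4, which encodes a placental peptide of the relaxin family. The shCtl cells carried the control virus, a scrambled hairpin according to the series design and a vector control according to the sample labels. Both groups grew in serum-containing DMEM, and each had 2 cultures with 1 Affymetrix array per culture, so the p-values reflect variation between cultures only, and effects of this hairpin other than the loss of INSL4 cannot be told apart from that loss.

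INSL4 itself had log2 levels of 7.26 and 7.22 in shINSL4 cells, against 9.03 and 8.92 in shCtl cells, which is 3.32-fold lower in shINSL4 (log2 fold change -1.73, SE 0.0684, adjusted p = 0.000142). Values are log2 RMA levels, and a log2 fold change is always shINSL4 over shCtl. Replicate arrays correlated at r = 0.998 (shINSL4) and 0.997 (shCtl) over genes, which are not independent of each other. Arrays of different groups correlated at 0.987 to 0.990. Of 6 markers of epithelium and of A549 cells, 3 fell and 0 rose, and the log2 of their summed level was 14.12 and 14.18 in shINSL4 cells, against 14.40 and 14.47 in shCtl cells. The keratin gene KRT18, with the largest fall of the 6, averaged 12.19 ± 0.0395 in shINSL4 cells and 12.73 ± 0.0184 in shCtl cells (SD, n = 2 each). KRT8 and EPCAM also fell, with log2 fold changes of -0.28 and -0.36. KRT19 at 0.12, AKR1B10 at -0.14 and AKR1C1 at -0.06 did not pass. Of 6 markers of blood, endothelium and fibroblasts, 0 fell and 1 rose (DCN, log2 fold change 0.30, adjusted p = 0.0233), and the log2 of their summed level was 8.66 and 8.62 in shINSL4 cells, against 8.57 and 8.38 in shCtl cells. Their part in the results was not tested.

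The chaperone genes did not move as one block. Of the 86 members, 15 fell and 6 rose in shINSL4 (limma, with p-values adjusted by Benjamini and Hochberg's method over all tested genes and a threshold of 0.05), while 65 did not pass. These are 17.4% and 6.98% of the members, against 9.42% lower and 6.41% higher among all tested genes. The share of lower calls was thus above the background and the share of higher calls near it. The same background shares apply to the counts by family below. Without shINSL4 replicate 1, 8 members were lower, against 6.25% of all genes, and without shINSL4 replicate 2, 3 members were higher, against 3.60% of all genes. The members' median log2 fold change was -0.01, against 0.08 over all tested genes, with a range of -1.46 to 0.60; the sign of the members' median changed with quantile normalization and without shINSL4 replicate 1 or shCtl replicate 2. Changes of at least 1.5-fold that passed the threshold were found for 5 lower members, against a background of 2.99%, and 1 higher member, against a background of 0.494%. In these cultures fewer cells of a type and less RNA per cell cannot be told apart.

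**Figure D1:**
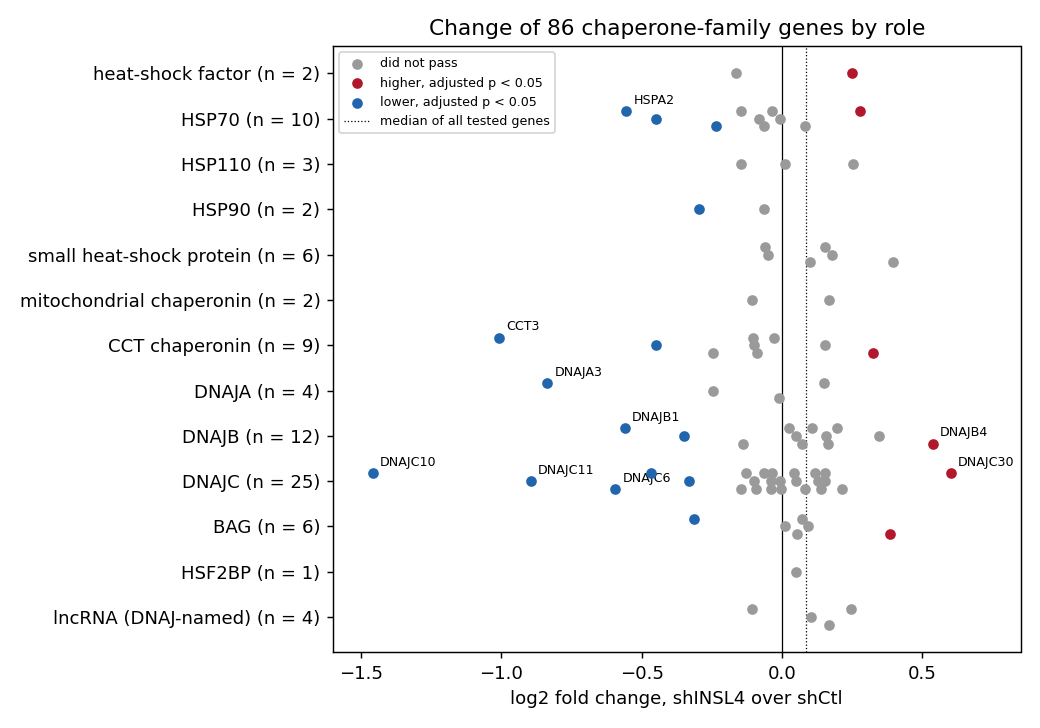
Log2 fold change (shINSL4 over shCtl, x axis) of each of the 86 members, 1 point per gene, grouped by role (y axis). Blue points fell, red points rose, grey points did not pass, and the dotted line is the median of all tested genes at 0.08. The lower calls reach -1.46 (DNAJC10), while the highest member, DNAJC30, is at 0.60.

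Brightness on the array bears on how many genes are called. Of the 65 members outside the dimmest 40% of tested genes, 14 fell (21.5%) and 4 rose (6.15%), whereas 14.4% of all 13480 genes in that range fell and 7.46% rose. Among the 21 dim members 1 fell (4.76%) and 2 rose (9.52%), against 2.0% and 4.83% of all 8985 dim genes. For 31 members each shINSL4 array lay below each shCtl array, against a background of 20.8%, and for 30 members each lay above, against a background of 48.0%.

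**Figure D2:**
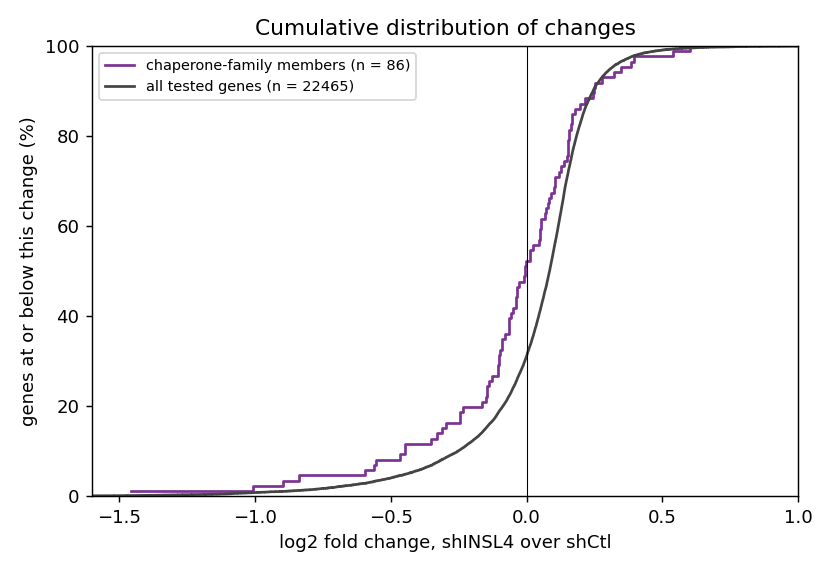
Share of genes (y axis, percent) whose log2 fold change, shINSL4 over shCtl, lies at or below the value on the x axis, for the 86 members and for all 22465 tested genes; the axis shows -1.6 to 1.0 only. The curve of the members lies to the left of the other through the middle of the range, with medians of -0.01 and 0.08.

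The heat-shock factors came first, as regulators of the other genes. HSF1, the main activator of the heat-shock response, had levels of 8.40 and 8.40 in shINSL4 cells, against 8.65 and 8.48 in shCtl cells, and its log2 fold change of -0.16 (SE 0.0746) did not pass (adjusted p = 0.17, 95% confidence interval -0.34 to 0.02). HSF5, known from spermatogenesis, had levels of 5.11 and 5.18 in shINSL4 cells, against 4.91 and 4.88 in shCtl cells. Both shINSL4 arrays were above both shCtl arrays and HSF5 rose by 0.25 on the log2 scale (SE 0.0633, adjusted p = 0.0425). HSF5 lies in the dimmest 40% of genes and its call was lost in 8 of 11 refits, including centring of each array on its median. HSF2BP had a log2 fold change of 0.05 (adjusted p = 0.612).

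Promoter sequence was read for the members because HSF1 and the unfolded protein response act through short elements near the start of these genes. The 250 bases before the annotated start were taken from RefSeq on GRCh38.p14 for 76 of the 86 members and shown for 5: HSPA1A and HSPA6 as stress-induced HSP70 genes, HSPA5 as the endoplasmic reticulum HSP70, DNAJB1 as the marker cochaperone and DNAJC10 as the member with the largest fall. Capitals mark a heat-shock element of 2 facing units (GAANNTTC or TTCNNGAA, each its own reverse complement) or an endoplasmic reticulum stress element (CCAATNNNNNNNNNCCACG on either strand).
HSPA1A (chr6:31815293-31815542, plus strand): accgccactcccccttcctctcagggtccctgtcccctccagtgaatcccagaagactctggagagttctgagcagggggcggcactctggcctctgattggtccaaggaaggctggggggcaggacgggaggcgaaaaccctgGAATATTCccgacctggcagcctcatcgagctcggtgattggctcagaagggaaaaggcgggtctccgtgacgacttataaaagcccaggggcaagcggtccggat
HSPA6 (chr1:161524290-161524539, plus strand): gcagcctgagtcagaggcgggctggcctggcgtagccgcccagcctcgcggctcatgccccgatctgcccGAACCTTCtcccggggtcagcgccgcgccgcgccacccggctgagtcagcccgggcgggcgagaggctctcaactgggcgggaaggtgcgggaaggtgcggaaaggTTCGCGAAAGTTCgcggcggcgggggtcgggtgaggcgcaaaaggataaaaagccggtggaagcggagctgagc
HSPA5 (chr9:125241344-125241593, minus strand): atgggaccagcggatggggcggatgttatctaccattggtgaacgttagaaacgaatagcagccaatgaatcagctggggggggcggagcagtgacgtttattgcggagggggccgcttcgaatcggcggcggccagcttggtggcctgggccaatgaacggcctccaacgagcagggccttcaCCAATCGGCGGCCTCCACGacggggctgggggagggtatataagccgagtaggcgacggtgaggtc
DNAJB1 (chr19:14529272-14529521, minus strand): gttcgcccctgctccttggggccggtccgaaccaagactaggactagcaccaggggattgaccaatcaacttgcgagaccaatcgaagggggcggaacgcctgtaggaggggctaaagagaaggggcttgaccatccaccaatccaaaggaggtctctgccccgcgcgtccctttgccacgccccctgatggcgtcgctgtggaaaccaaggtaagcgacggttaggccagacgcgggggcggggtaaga
DNAJC10 (chr2:182716007-182716256, plus strand): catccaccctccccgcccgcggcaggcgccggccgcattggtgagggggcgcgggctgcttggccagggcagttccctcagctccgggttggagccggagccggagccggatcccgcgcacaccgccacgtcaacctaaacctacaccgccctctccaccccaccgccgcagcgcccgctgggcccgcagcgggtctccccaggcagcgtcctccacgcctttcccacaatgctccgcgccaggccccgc

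In HSPA1A the element began 106 bases before the start. In HSPA6 there were 3 matches, of which those at 74 and 69 bases overlap and form an element of 3 units. HSPA5 held the stress element 66 bases before the start, and DNAJB1 and DNAJC10 held neither set of letters in this window. Only 1 annotated start per gene was read, so windows before any other start of DNAJB1 or DNAJC10 were not searched. Heat-shock elements of 2 units were present in 13 of the 76 member promoters (17.1%) and in 11.7% of all 27305 promoters. Among members with a sequence, 1 of 14 lower, 0 of 5 higher and 12 of 57 that did not pass held one. The 3-unit form (GAANNTTCNNGAA or TTCNNGAANNTTC) was found in HSPA6 and DNAJB6, neither of which passed, and in 0.439% of all promoters. The stress element occurred in 22 of all promoters (0.0806%) and among the members in HSPA5 alone. A match describes the letters and is not a measured binding site. Only exact matches in 1 window per gene were counted, so elements elsewhere or with other letters would be missed. The difference in matches between lower, higher and other members was not tested.

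Of the 10 HSP70 genes, 3 fell and 1 rose, and their median log2 fold change was -0.07. HSPA1A, the major stress-induced cytosolic HSP70, had levels of 9.44 and 9.61 in shINSL4 cells, against 9.95 and 10.00 in shCtl cells. Both shINSL4 arrays were lower, and HSPA1A fell by 0.45 on the log2 scale (SE 0.077, adjusted p = 0.011). The 4 array features annotated to HSPA1A alone gave log2 fold changes of -0.46 to -0.44, but the near-identical HSPA1B may share their signal. These features are named for haplotype versions of chromosome 6 and had mean levels of 9.747 to 9.751. They are not independent measurements of the change. Without shINSL4 replicate 1 the adjusted p of HSPA1A was 0.0508.

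HSPA2, an HSP70 best known from the testis, had levels of 9.05 and 9.15 in shINSL4 cells, against 9.62 and 9.70 in shCtl cells. The groups did not overlap and HSPA2 fell by 0.56 on the log2 scale (SE 0.0696, adjusted p = 0.00328), a level 1.47-fold lower. HSPA5 encodes BiP, the HSP70 of the endoplasmic reticulum, and had levels of 11.61 and 11.66 in shINSL4 cells, against 11.85 and 11.89 in shCtl cells. HSPA5 fell by 0.23 on the log2 scale (SE 0.0624), just within the threshold (adjusted p = 0.0495), and did not pass after quantile or cyclic loess normalization, nor without shINSL4 replicate 1, shINSL4 replicate 2 or shCtl replicate 2.

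HSPA13, a microsomal HSP70-like ATPase, moved the other way, with levels of 9.29 and 9.35 in shINSL4 cells, against 9.01 and 9.07 in shCtl cells. It rose by 0.28 on the log2 scale (SE 0.0644, adjusted p = 0.0321), a call that centring on the median and leaving out either shINSL4 array or shCtl replicate 1 ended. The other HSP70 genes did not pass. HSPA6, which is induced only by strong stress, had a log2 fold change of -0.15 with both shINSL4 arrays below both shCtl arrays. The mitochondrial HSP70 gene HSPA9 had one of -0.04 (95% confidence interval -0.20 to 0.12). HSPA14, a ribosome-associated HSP70, was at -0.08, HSPA1L at -0.06, HSPA12A at -0.01 and HSPA12B at 0.08 on the same scale.

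None of the 3 HSP110 genes, which encode nucleotide exchange factors for HSP70, passed in limma, and 1 of them had an unadjusted p under 0.05. That gene was HSPA4L, with levels of 9.47 and 9.35 in shINSL4 cells, against 9.07 and 9.25 in shCtl cells and a log2 fold change of 0.25 (SE 0.0841, adjusted p = 0.0909). Among all 22465 tested genes, 3045 lower and 4663 higher genes had an unadjusted p under 0.05 in limma. HSPH1, the heat-inducible member, had a log2 fold change of -0.15 (adjusted p = 0.214) and HSPA4 one of 0.01 (95% confidence interval -0.16 to 0.18).

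The cytosolic HSP90 pair was split by the threshold. HSP90AB1, the constitutive form, had levels of 11.79 and 11.83 in shINSL4 cells, against 12.07 and 12.15 in shCtl cells. Both shINSL4 arrays were lower, and it fell by 0.30 on the log2 scale (SE 0.0647, adjusted p = 0.0256). HSP90AA1, the inducible form, had levels of 11.19 and 11.20 in shINSL4 cells, against 11.21 and 11.31 in shCtl cells, and its log2 fold change of -0.06 did not pass (adjusted p = 0.48, 95% confidence interval -0.22 to 0.09). The difference between the changes of the HSP90 genes was not tested, the intervals overlap (that of HSP90AB1 was -0.45 to -0.14), and the call of HSP90AB1 was lost without either shINSL4 array and without shCtl replicate 2. Pseudogene copies of both genes exist and may share signal.

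Of the 6 small heat-shock protein genes, which encode chaperones that hold unfolded proteins without ATP, 0 passed in limma and 0 had an unadjusted p under 0.05. Among all 22465 tested genes, 3045 lower and 4663 higher genes had such a p. HSPB1, the widely expressed HSP27, had levels of 10.51 and 10.60 in shINSL4 cells, against 10.62 and 10.59 in shCtl cells, and the arrays of the groups overlapped (log2 fold change -0.05, 95% confidence interval -0.21 to 0.10). HSPB8, which works with BAG3 in selective autophagy, had a log2 fold change of -0.06. The others ran from 0.10 for HSPB7 through 0.15 for HSPB6 and 0.18 for HSPB9 to 0.40 for HSPB3. HSPB9 and HSPB3 varied widely between the shCtl arrays, so their standard errors were 0.164 and 0.233, against a median of 0.0693 over all tested genes.

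The cytosolic chaperonin CCT, also called TRiC, is a ring complex built of different subunits that folds actin and tubulin, and its genes did not change in step. Of 7 ring subunits whose symbol matched the rule, with the testis form CCT6B not counted, 2 fell, 0 rose and 5 did not pass. Their log2 fold changes were -1.01 to -0.03, with a median of -0.10. A ring subunit with another kind of symbol is not covered here. CCT3 had levels of 9.40 and 9.53 in shINSL4 cells, against 10.46 and 10.48 in shCtl cells. It fell by 1.01 on the log2 scale (SE 0.0698, adjusted p = 0.000366), a level 2.01-fold lower in shINSL4. The gap between the groups was larger than the gap between replicates, and the call held in all 12 refits. CCT7 had levels of 9.49 and 9.66 in shINSL4 cells, against 9.98 and 10.07 in shCtl cells, and fell by 0.45 (SE 0.0795, adjusted p = 0.0125), which did not pass without shINSL4 replicate 1 or without shCtl replicate 2.

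The other ring subunits among the members did not pass. Of these, 3 had both shINSL4 arrays below both shCtl arrays, against a background of 20.8% of all genes. CCT6A had a log2 fold change of -0.25 (adjusted p = 0.0806), CCT2 of -0.10, CCT8 of -0.10, CCT5 of -0.09 and CCT4 of -0.03. The 95% confidence interval of CCT3, -1.18 to -0.84, did not overlap that of any other ring subunit among the members. The nearest was CCT7 at -0.64 to -0.26, and the interval of CCT4 was -0.18 to 0.13. CCT6B, a testis form of the CCT6 subunit that was not counted with the ring subunits above, had a log2 fold change of 0.15 (adjusted p = 0.151). The retrogene CCT8L2 had levels of 5.39 and 5.28 in shINSL4 cells, against 5.03 and 5.00 in shCtl cells and rose by 0.32 on the log2 scale (adjusted p = 0.0217), but it is among the dimmest 40% of genes and did not pass after quantile or cyclic loess normalization, nor without shINSL4 replicate 1 or shCtl replicate 2.

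The mitochondrial chaperonin HSP60 and its lid HSP10 are encoded by HSPD1 and HSPE1, neighbouring genes that share a bidirectional promoter. HSPD1 had levels of 9.85 and 9.86 in shINSL4 cells, against 9.63 and 9.74 in shCtl cells, with a log2 fold change of 0.17 (adjusted p = 0.131). HSPE1 had levels of 8.25 and 8.27 in shINSL4 cells, against 8.28 and 8.45 in shCtl cells, with a log2 fold change of -0.11 (adjusted p = 0.325). Neither passed, and the arrays separated upward for HSPD1 and downward for HSPE1. Among all tested genes, 48.0% separated upward and 20.8% downward.

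**Figure D3:**
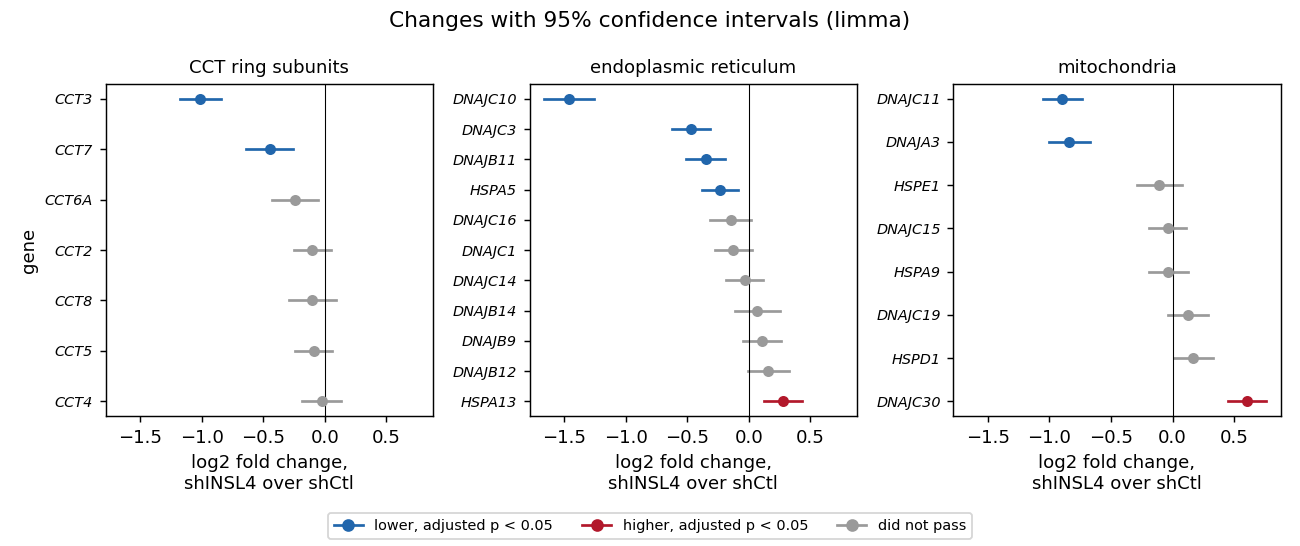
Log2 fold change (shINSL4 over shCtl, x axis) with limma's 95% confidence interval. Panels show the 7 CCT ring subunits matched by the rule (CCT6B left out), the 11 members of the endoplasmic reticulum and the 8 members of mitochondria. Blue genes fell, red genes rose and grey genes did not pass. CCT3, DNAJC10, DNAJC11 and DNAJA3 stand to the left of the other genes of their panel, with DNAJC30 on the right at 0.60.

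DNAJ proteins carry a J domain that stimulates ATP hydrolysis by HSP70 and thereby choose its clients. Class A members resemble bacterial DnaJ most closely. Of the 4 class A genes 1 fell and 0 rose. DNAJA3, the mitochondrial member, had levels of 7.85 and 7.97 in shINSL4 cells, against 8.74 and 8.76 in shCtl cells. The groups lay far apart relative to the replicates, and DNAJA3 fell by 0.84 on the log2 scale (SE 0.0685, adjusted p = 0.000675), a level 1.79-fold lower. DNAJA1, a stress-induced cytosolic member, had levels of 10.35 and 10.32 in shINSL4 cells, against 10.51 and 10.65 in shCtl cells and did not pass (log2 fold change -0.25, adjusted p = 0.0639). DNAJA2 was at -0.01 and DNAJA4 at 0.15 on the log2 fold scale, and neither passed.

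Of the 12 class B genes 2 fell and 1 rose, with a median log2 fold change of 0.09. DNAJB1, the stress-induced cochaperone used as the group's marker, had levels of 8.74 and 8.94 in shINSL4 cells, against 9.34 and 9.46 in shCtl cells. Both shINSL4 arrays were lower than both shCtl arrays, and DNAJB1 fell by 0.56 on the log2 scale (SE 0.0872, adjusted p = 0.00748), a level 1.48-fold lower. The fold change ran from -0.66 to -0.46 when 1 array was left out, and the call held in all 12 refits.

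DNAJB4, a close relative of DNAJB1 in the cytosol, changed in the opposite direction. Its levels were 8.09 and 8.08 in shINSL4 cells, against 7.42 and 7.67 in shCtl cells, and it rose by 0.54 on the log2 scale (SE 0.0909, adjusted p = 0.0104). The shCtl arrays of DNAJB4 differed more than those of most members (SD 0.176, n = 2), and its call still held in all 12 refits.

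DNAJB11, the BiP cochaperone also called ERdj3, had levels of 8.53 and 8.58 in shINSL4 cells, against 8.87 and 8.95 in shCtl cells and fell by 0.35 on the log2 scale (adjusted p = 0.0153). A dimmer array feature for DNAJB11 gave a log2 fold change of 0.18 that did not pass, so the features disagree, and the mean of both had an adjusted p of 0.339. The call was also lost without shINSL4 replicate 1. The other 9 class B genes did not pass. DNAJB9, another BiP cochaperone, was at 0.11, and the endoplasmic reticulum membrane proteins DNAJB12 and DNAJB14 were at 0.16 and 0.07 on the log2 fold scale. DNAJB6, which suppresses aggregation of polyglutamine proteins, was at 0.02, DNAJB5 at 0.05 and DNAJB2, a form known from neurons, at -0.14. The dim genes DNAJB7, DNAJB8 and DNAJB13 had log2 fold changes of 0.35, 0.20 and 0.16.

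Class C, the most varied class, held the largest changes of all members. Of its 25 genes 5 fell, 1 rose and 19 did not pass. DNAJC10, also called ERdj5, is a disulfide reductase of the endoplasmic reticulum that prepares misfolded proteins for degradation. Its levels were 7.81 and 7.90 in shINSL4 cells, against 9.22 and 9.41 in shCtl cells. The groups were separated by over 1 log2 unit, and DNAJC10 fell by 1.46 (SE 0.0837, adjusted p = 0.000221), a level 2.75-fold lower.

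DNAJC11, a mitochondrial protein linked to the cristae, had levels of 7.76 and 7.86 in shINSL4 cells, against 8.70 and 8.71 in shCtl cells. It fell by 0.90 on the log2 scale (SE 0.0665, adjusted p = 0.000478), a level 1.86-fold lower. DNAJC30, a mitochondrial protein that takes part in the turnover of respiratory complex I, had levels of 8.67 and 8.71 in shINSL4 cells, against 8.05 and 8.12 in shCtl cells. DNAJC30 rose by 0.60 on the log2 scale (SE 0.064, adjusted p = 0.00178), which made it the member with the largest rise in this fit. Calls of all 3 of these class C genes held in the 12 refits.

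DNAJC3, known as p58IPK and active in the endoplasmic reticulum, had levels of 8.38 and 8.42 in shINSL4 cells, against 8.83 and 8.91 in shCtl cells and fell by 0.47 on the log2 scale (adjusted p = 0.00496). DNAJC6, the auxilin that helps HSP70 strip clathrin from vesicles, had levels of 6.12 and 6.07 in shINSL4 cells, against 6.67 and 6.71 in shCtl cells and fell by 0.59 (SE 0.0623, adjusted p = 0.00168). It was the only lower member among the dimmest 40% of genes. DNAJC22, whose fly relative acts in endocytosis, had levels of 8.03 and 8.01 in shINSL4 cells, against 8.33 and 8.37 in shCtl cells and fell by 0.33 (adjusted p = 0.0144), a call lost without either shINSL4 array.

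Among the 19 class C genes that did not pass, log2 fold changes ran from -0.15 for DNAJC16 to 0.21 for DNAJC8. DNAJC8 is found with the spliceosome, and its shCtl arrays lay far apart (levels of 7.93 and 7.94 in shINSL4 cells, against 7.58 and 7.86 in shCtl cells). DNAJC4 was the class C gene with an unadjusted p under 0.05 that missed the threshold, at 0.15 (adjusted p = 0.136). The import motor protein DNAJC19 was at 0.13 and its relative DNAJC15 at -0.04. The ribosome-associated DNAJC2 was at -0.10, the ribosome biogenesis factor DNAJC21 at 0.15, the HSP70 and HSP90 adaptor DNAJC7 at -0.00 and the endosomal DNAJC13 at -0.06. DNAJC1, DNAJC14, DNAJC24, DNAJC27 and DNAJC5B were at -0.13, -0.03, -0.04, -0.01 and -0.09. DNAJC28, DNAJC18, DNAJC17, DNAJC12 and DNAJC5G were at 0.04, 0.05, 0.08, 0.12 and 0.14 on the same scale. None of the 4 noncoding RNAs passed in limma, 1 of them with an unadjusted p under 0.05 (DNAJC9-AS1 at 0.17). Among all 22465 tested genes, 4663 were higher with such a p. DNAJC3-DT, which neighbours the lower gene DNAJC3, was at -0.11 with overlapping groups, DNAJC27-AS1 at 0.10 and DNAJB8-AS1 at 0.24.

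BAG proteins bind the ATPase domain of HSP70 and release its clients, and of the 6 genes 1 fell and 1 rose. BAG1, which links HSP70 to the proteasome, had levels of 7.20 and 7.17 in shINSL4 cells, against 7.47 and 7.53 in shCtl cells and fell by 0.31 on the log2 scale (SE 0.0633, adjusted p = 0.0199). BAG4, named as a silencer of death domains, had levels of 8.67 and 8.72 in shINSL4 cells, against 8.27 and 8.34 in shCtl cells and rose by 0.39 (SE 0.0643, adjusted p = 0.00981). The groups did not overlap for either gene, in opposite directions. BAG1 did not pass without either shINSL4 array or without shCtl replicate 2, and BAG4 had an adjusted p of 0.0537 without shINSL4 replicate 2. BAG3, an HSF1-induced partner of HSPB8, had levels of 8.79 and 8.83 in shINSL4 cells, against 8.76 and 8.77 in shCtl cells and did not pass (log2 fold change 0.05, 95% confidence interval -0.09 to 0.20). BAG2, BAG5 and BAG6 were at 0.01, 0.07 and 0.09 on the log2 fold scale.

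**Figure D4:**
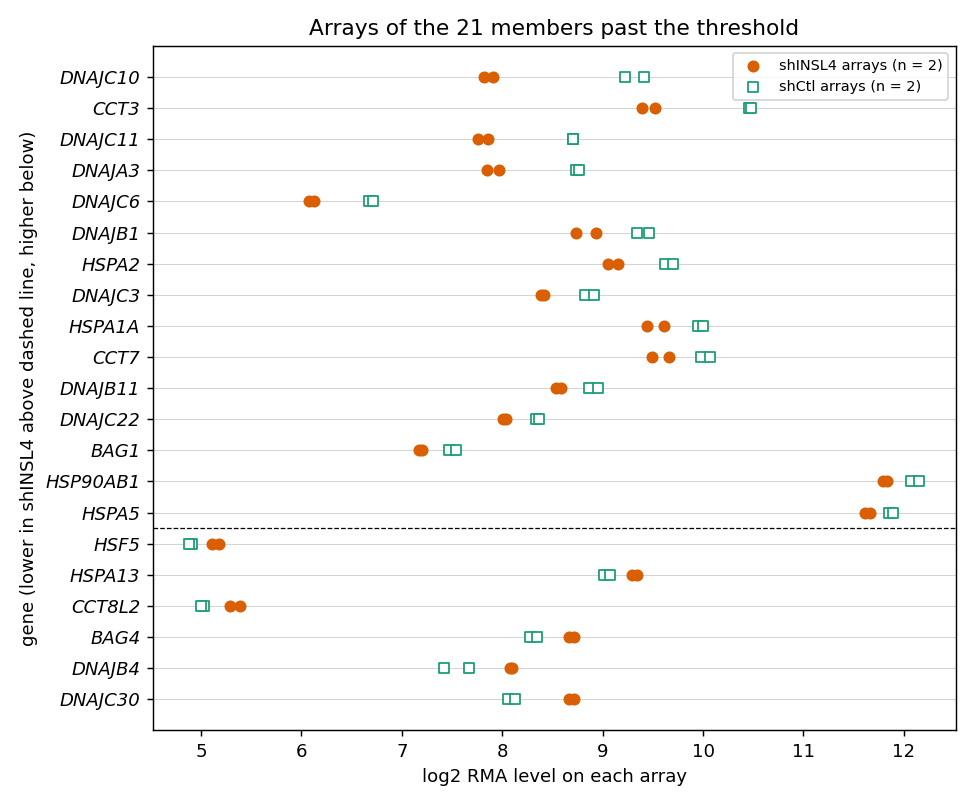
Log2 RMA level (x axis) of each of the 21 members past the threshold on each array, with filled circles for the 2 shINSL4 arrays and open squares for the 2 shCtl arrays. The circles lie left of the squares for the 15 lower genes and right of them for the 6 higher genes; levels of different genes are not comparable.

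Set out by compartment, in a grouping drawn up after the values were seen, changes ran in both directions. Among all tested genes 9.42% fell and 6.41% rose. Of 11 members of the endoplasmic reticulum 4 fell and 1 rose, at a median of -0.13 for the log2 fold change. The lower ones were the HSP70 gene HSPA5 and the cochaperone genes DNAJC10, DNAJC3 and DNAJB11, and the higher one was HSPA13. Of 8 mitochondrial members 2 fell and 1 rose, with a median of -0.04. There the lower genes were the cochaperone genes DNAJA3 and DNAJC11, while the main mitochondrial chaperones HSPA9, HSPD1 and HSPE1 did not pass.

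Other genes of protein folding were described from a list of 68 symbols, of which 63 were tested and are no members. All of these except CRYAB were brighter than the dim genes described above. Among all genes of that brighter range 14.4% fell and 7.46% rose. Of the 63, 12 fell (19.0%) and 6 rose, again against 9.42% lower and 6.41% higher among all tested genes. The median log2 fold change of the 63 was -0.02. Without shINSL4 replicate 1, shINSL4 replicate 2 or shCtl replicate 2, 3 rose, while 3.97%, 3.60% and 4.80% of all genes did. Of 19 cochaperones of HSP70 and HSP90, 5 fell and 1 rose. FKBP5, a glucocorticoid-induced HSP90 cochaperone, averaged 7.08 ± 0.0964 in shINSL4 cells and 7.86 ± 0.108 in shCtl cells (SD, n = 2 each) and fell by 0.78 on the log2 scale (adjusted p = 0.00168). STUB1, the ubiquitin ligase that tags HSP70 clients, fell by 0.54, TOMM34 by 0.56, SGTA by 0.52 and NUDC by 0.35, while CDC37L1, a relative of the kinase cochaperone CDC37, rose by 0.43.

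In the endoplasmic reticulum 2 of 12 folding partners fell and 0 rose, and these were the largest changes of the list. The lectin chaperone gene CANX averaged 10.19 ± 0.00152 in shINSL4 cells and 11.57 ± 0.115 in shCtl cells (SD, n = 2 each) and fell by 1.37 on the log2 scale (SE 0.0747, adjusted p = 0.000201). P4HB, the main protein disulfide isomerase, averaged 9.66 ± 0.012 in shINSL4 cells and 10.90 ± 0.0268 in shCtl cells (SD, n = 2 each) and fell by 1.23 (SE 0.061, adjusted p = 0.000155). For the listed genes that passed, adjusted p-values ran from 0.000155 to 0.0474. CALR, the soluble counterpart of CANX, had a log2 fold change of -0.03 and did not pass.

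Of 13 prefoldin and CCT partners, 2 fell (TXNDC9 by 0.29 and TBCD by 0.29) and 2 rose (PFDN2 by 0.30 and TBCC by 0.42) on the log2 scale. Of 10 mitochondrial partners the protease gene CLPP fell by 0.55 and the disaggregase gene CLPB rose by 0.24. Of 14 further genes that HSF1 is known to induce or that act with it, some of which are also in the cochaperone list, 2 fell and 2 rose. HSBP1, which binds HSF1, fell by 0.46 and SQSTM1 by 0.23, while HMOX1 rose by 0.42 and the collagen chaperone gene SERPINH1 by 0.33 on the log2 scale. HSF1 targets that act with HSP90 did not pass, with STIP1 at -0.12, FKBP4 at -0.16 and CHORDC1 at -0.13.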

How the data were processed

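Total RNA of 2 shINSL4 and 2 shCtl cultures of A549 cells was measured on Affymetrix arrays. The deposited values are log2 levels from RMA, which the submitters' processing notes name together with Affymetrix Expression Console. Versions of these tools and the annotation's build are not stated in the sources used here. The log2 scale was read from the range of the values.

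Of 67528 transcript clusters, the platform annotation gives 23781 exactly 1 gene symbol, 1543 several and 42204 none. The highest-mean cluster per gene was kept (22465 genes), and 3 members had several clusters. Biotypes came from the GRCh38.p14 RefSeq table, in which 84 of 86 member identifiers were found. All genes were tested together in R 4.3.3 with limma 3.58.1 (group term, lmFit, eBayes, two-sided) with Benjamini-Hochberg adjustment at 0.05. The number of arrays limits the precision: there were 2 residual and 4.68 prior degrees of freedom. The steps were tested on simulated data, where 3% of 1.2-fold and 99.5% of 1.5-fold changes were recovered. Fewer genes changed in the simulation than were called here, so these shares may not carry over. The dimmest 40% are the genes with the lowest mean level.

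The members and lists were chosen with earlier results of these data known. The text names every member, INSL4, listed partners past the threshold and fixed cell markers; CALR, STIP1, FKBP4 and CHORDC1 were picked after their values were seen. The 12 refits changed the replicate block, variance model, filter, normalization, cluster choice or left out 1 array each, and 2 other thresholds were applied.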

Additional observations from a re-analysis of the deposited data

How the results depend on the processing

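Over the 12 refits, 10 of the 21 called members (8 lower, 2 higher) passed in every refit they entered, 11 were lost in at least 1, and 0 changed sign. With 1 array left out, 8 to 17 members were lower and 3 to 7 higher, while 6.25% to 10.8% of all genes were lower and 3.60% to 13.3% higher; the 8 came without shINSL4 replicate 1, and the 3 without shINSL4 replicate 2. The lone array of a group is then assumed to vary like the other group. Of the partner genes 8 to 13 were lower and 3 to 7 higher, the 3 without shINSL4 replicate 1, shINSL4 replicate 2 or shCtl replicate 2. INSL4 ran from -1.79 to -1.68 and DNAJB1 from -0.66 to -0.46 in these fits. An added fold of 1.5 left 5 lower and 1 higher member and 3 lower and 0 higher partners, as the stricter rule's construction implies. Among all tested genes, 2.99% were lower and 0.494% higher under this rule. DNAJB1 at -0.56 did not reach the added fold. Higher partners numbered 10 with an intensity trend, with or without robust estimation, with quantile normalization or at an adjusted p under 0.1, and 11 with the lowest 40% of genes left out, where fewer genes are tested. The share of all genes called higher was 8.83%, 9.0%, 6.82%, 13.2% and 16.5% in these 5 settings, against 6.41% as reported; otherwise the cause was not tested. The members' median, -0.01 as reported, was 0.0023 after quantile normalization, 0.0084 without shINSL4 replicate 1 and 0.017 without shCtl replicate 2, so its sign is not settled. With the replicate number as a block 17 members were lower and 9 higher, including the 15 and 6 reported, against 11.6% and 13.3% of all genes. The titles give same-numbered samples a common letter code whose meaning they do not state, and the deviations of replicate 1 from the group means correlated at 0.232 across genes.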
